A study of Mus musculus with 400 samples.

Results

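The cells described here are sorted sensory neurons whose libraries also held RNA of Apoe, the apolipoprotein E gene, at 500 CPM or more (CPM, the counts of a gene scaled to a common total per cell). They were 95 of 371 single cells from cervical dorsal root ganglia (DRG), or 25.6% (exact 95% interval 21.2% to 30.4%, counting error only). They were set against 247 cells of the same ganglia with Apoe under 100 CPM, and the remaining 29 cells lay between these bounds. All cells came from mice of the genotype Nav1.8-Cre R26CAG-floxStop-tdTomato (strain label Nav1.8-Cre.Ai14), naive and aged 6 to 12 weeks. In these mice the Cre of the Nav1.8 gene Scn10a turns on the red protein tdTomato, and segments C1 to C8 were dissociated with liberase, dispase II, papain and DNase I before single tdTomato+ cells were sorted. The mark records that a cell or its precursor expressed the Cre, and the Apoe-high and Apoe-low cells share strain, age, treatment and sort. Of the 6 mice, Blue and Red made up sequencing run 1, Control was sequenced in run 2, run 3 held the pair Control1 and Control2, and Control6 was run 4. Each mouse counts as 1 replicate, and cells of a mouse do not.

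A DRG neuron is wrapped in a sheath of satellite glia, small cells that take up potassium and glutamate around the cell body and are coupled to each other by gap junctions. Apoe carries lipid out of glia and is abundant in satellite glia, as is Fabp7, a fatty acid binding protein. Schwann cells, which ensheath the axons, come from the same neural crest lineage and express myelin genes such as Mbp. The neurons fall into classes known by marker genes. Mrgprd and Mrgpra3 encode receptors of non-peptidergic and itch neurons, Sst encodes somatostatin, Th the tyrosine hydroxylase of touch-sensing C fibres, Calca the peptide CGRP and Nefh the heavy neurofilament of myelinated neurons.

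Because Apoe chose the cells, its values are a description. Apoe (chromosome 7, 19696109 to 19699188 on the minus strand, mm10) ranged from 511.7 to 19425.9 CPM in Apoe-high cells, with a median of 2021 CPM. In 208 of the 247 Apoe-low cells it was at 0, and the highest of them held 95.3 CPM. The lowest Apoe-high cells held 511.7, 553 and 558.4 CPM, and the highest cells outside held 483.4, 457.6 and 454.3 CPM. Of the 95 Apoe-high cells, 48 exceeded 2000 CPM and 3 exceeded 5000 CPM. The highest value came from a cell of mouse Control with 6173 counts.

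Every mouse held Apoe-high cells. They were 18 cells or 14.3% of Blue, 32 cells or 25% of Red and 24 of 50 cells in Control (48%). They were 2 of 19 in Control1 (10.5%), 12 of 23 in Control2 (52.2%) and 7 of 25 in Control6 (28%). Control1 and Control2 were sequenced in the same run and lay at the 2 ends of this range. Within run 1 the shares of Blue and Red were 14.3% and 25%, with exact intervals of 8.69% to 21.6% and 17.8% to 33.4%. These intervals cover counting error only, and the difference between the mice was not tested.

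**Figure D1:**
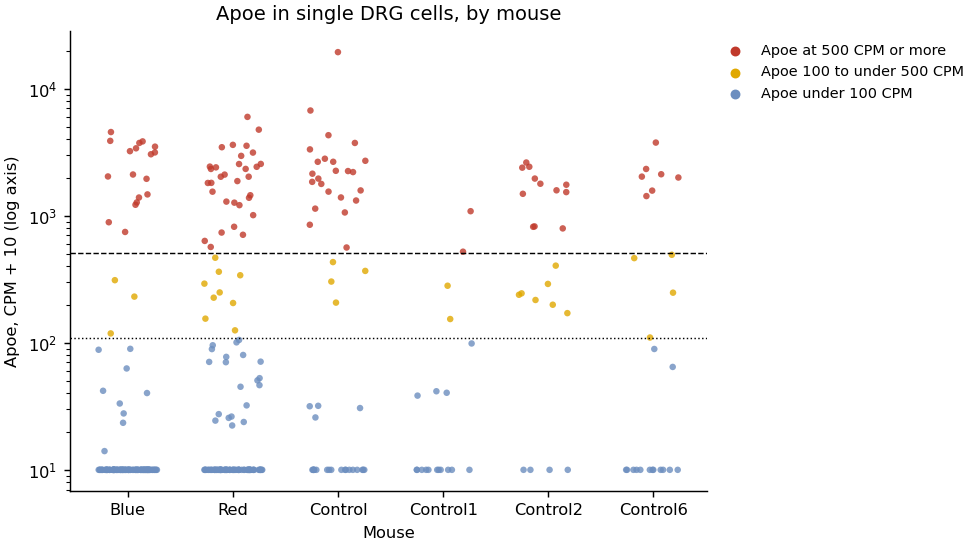
Apoe in CPM plus 10 on a log axis for each of the 371 cells, by mouse. Dashed and dotted lines mark 500 and 100 CPM. Most Apoe-low cells sit at 0, and few cells lie between the lines.

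Kept cells held a median of 30393 counts, with mouse medians of 24710 to 42481. Another 23 libraries had under 500 detected genes and at most 384 counts and were left out. Apoe-high cells held a median of 31650 counts and 6805 genes, and Apoe-low cells 29917 counts and 6534 genes. In cells with none of the neuron class markers the medians were 23798 counts in Apoe-high and 6815 counts in Apoe-low cells. Matched by mouse and neuron class, the counts differed by 0.20 on the log2 scale (SD 1.01, n = 5 mice, higher in 4 of 5, exact two-sided sign-flip p = 0.5625). Detected genes differed by 0.15 on the log2 scale (SD 0.52, n = 5 mice, higher in 4 of 5, exact two-sided sign-flip p = 0.5625). The smallest p that 5 mice allow is 0.0625. Libraries were of single sorted cells, no doublet caller was run, and the part of more than 1 cell or of adhering cell fragments per library was not tested.

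The Apoe-high cells were neurons by their transcripts. Snap25, a synaptic vesicle fusion gene, had a count in 95 of 95 Apoe-high cells and in 239 of 247 Apoe-low cells. Uchl1, an abundant neuronal ubiquitin hydrolase, had a count in 94 of 95 and in 241 of 247 cells. Scn10a, the gene that drives the Cre, had a count in 92 of 95 Apoe-high cells, with a median of 526 CPM, and in 244 of 247 Apoe-low cells, with a median of 702 CPM. Summed over 14 pan-neuronal genes the median was 15093 CPM in Apoe-high cells (range 7377 to 20722) and 15828 CPM in Apoe-low cells (range 9804 to 26732), so the ranges overlapped over most of their width.

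Apoe-high cells occurred in every neuron marker class. A cell took the class of its highest marker among Mrgprd, Mrgpra3, Sst and Th at 100 CPM or more. Without one, it was placed by Calca at 1000 CPM and Nefh at 500 CPM or more. Apoe-high cells were 17 cells or 15.04% of the Mrgprd class, 9 of 44 Mrgpra3 cells (20.45%), 5 of 43 Sst cells (11.6%) and 10 of 39 Th cells (25.6%). They were 32 of 88 Calca cells (36.4%), 13 of 16 cells with both Calca and Nefh (81.3%, exact 95% interval 54.4% to 95.95%), 3 of 4 Nefh cells and 6 of 24 cells with none of these markers (25%). The share was therefore lowest in Sst and Mrgprd cells and highest in cells with Nefh.

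Counted marker by marker, Calca passed its threshold in 60% of Apoe-high cells and 35.2% of Apoe-low cells, and Nefh in 22.1% and 1.62%. Mrgprd passed in 17.9% of Apoe-high cells and 34.4% of Apoe-low cells, and Sst in 5.26% and 14.6%. Mrgpra3 passed in 10.5% and 12.96%, and Th in 10.5% and 11.3%. Of the Apoe-high cells, 61 held 1 of the 6 markers, 25 held 2, 3 held 3 and 6 held none. The most frequent pairs in Apoe-high cells were Calca with Nefh (16 cells, against 4 Apoe-low cells) and Mrgpra3 with Calca (8 cells, against 31 Apoe-low cells). No Apoe-high cell paired Mrgprd with Mrgpra3, Sst or Th, and 2, 0 and 0 of the 247 Apoe-low cells did.

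Averaged over the 5 mice with at least 3 cells on each side, Mrgprd cells were 17.4% ± 5.52 of Apoe-high cells and 48.8% ± 20.0 of Apoe-low cells (SD), lower in 5 of 5 mice. Calca cells were 31.05% ± 17.9 of Apoe-high and 10.95% ± 12.4 of Apoe-low cells, higher in 5 of 5 mice. Sst cells were 5.90% ± 6.36 of Apoe-high and 13.6% ± 8.10 of Apoe-low cells, lower in 5 of 5 mice. Each of these 3 differences had an exact two-sided sign-flip p of 0.0625, the smallest possible with n = 5, and an adjusted p of 0.167 over 8 classes, so none passed 0.05. For the other 5 classes the exact p lay between 0.5 and 1.

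The cells with Nefh came mostly from 1 mouse. In Control, all 10 cells with Calca and Nefh, all 4 Calca cells and 3 of 4 Nefh cells were Apoe-high, and no cell of these classes was Apoe-low. In Control6, 1 of 3 cells with Calca and Nefh was Apoe-high, in Control2 2 of 2 and in Blue 0 of 1. Mouse and class cannot be told apart for these cells, which have few Apoe-low counterparts. The 16 Apoe-high cells of the Calca with Nefh and Nefh classes held a median of 2337 CPM of Apoe (range 1053 to 19426) and 344 CPM of Fabp7 (range 184 to 3561). Fabp7, Sparc, Gpm6b and Dbi were above 0 in each of the 16. S100b, which is made by glia and also by large neurons, had a median of 1371 CPM in them and ranged from 0 to 2678 CPM.

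**Figure D2:**
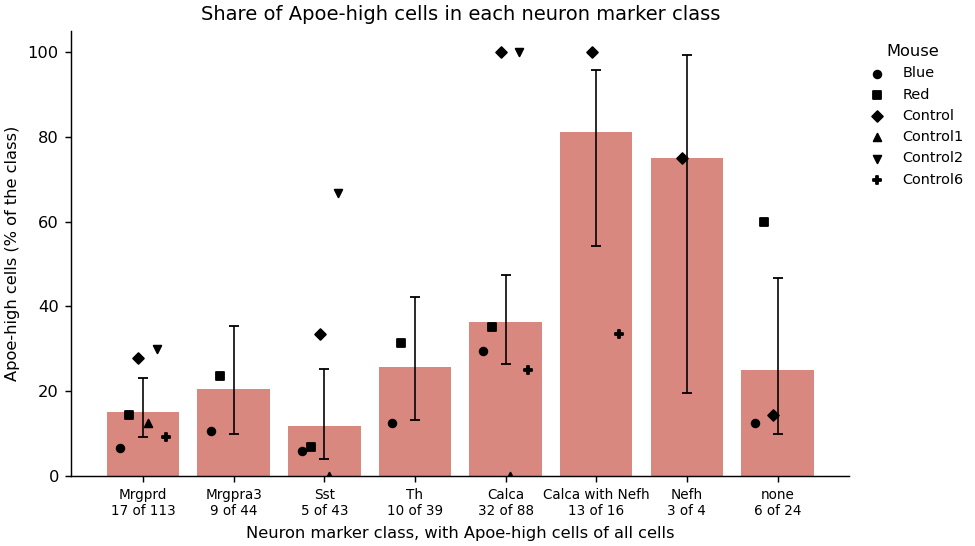
Apoe-high cells as a percentage of each neuron marker class. Bars give all mice with exact 95% intervals, and points give single mice with at least 3 cells of the class. The share runs from 11.6% in Sst cells to 81.3% in cells with Calca and Nefh, where all 10 cells of mouse Control were Apoe-high.

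The other 3 markers of satellite glia that came with the selection were found in nearly every Apoe-high cell. Fabp7 had a count in 87 of 95 Apoe-high cells (91.6%) and 14 of 247 Apoe-low cells (5.67%). Sparc, a secreted matrix-binding protein gene, had a count in 93 Apoe-high and 14 Apoe-low cells. Gpm6b, a proteolipid membrane glycoprotein gene, had a count in 92 Apoe-high and 15 Apoe-low cells. All 3 were detected together in 84 Apoe-high cells and 2 Apoe-low cells, and none of the 3 in 0 Apoe-high and 216 Apoe-low cells.

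The cells between the bounds were intermediate, with Fabp7 in 51.7%, Sparc in 72.4% and Gpm6b in 68.97% of 29 cells. With each cell thinned to 5000 counts, which left out 1 Apoe-high and 9 Apoe-low cells, Fabp7 was detected in 72.3%, Sparc in 69.1% and Gpm6b in 60.6% of Apoe-high cells, and each of them in 0.840% of Apoe-low cells. The 95 cells highest in Fabp7 included 84 of the 95 Apoe-high cells (88.4%) and 3 Apoe-low cells. The 2 Apoe-high cells with only 1 of the 3 markers held 553 and 809 CPM of Apoe, and both also had counts of Dbi.

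For the comparison across genes, each Apoe-high cell was matched to Apoe-low cells of the same mouse and class. This left 67 Apoe-high and 227 Apoe-low cells in Blue, Red, Control, Control2 and Control6. The other 28 Apoe-high cells had no match or lay in Control1. Most matched cells came from Blue and Red. Control held 7 matched Apoe-high and 19 matched Apoe-low cells, Control2 5 and 4, and Control6 5 and 13. The means of these mice rest on few cells, yet each mouse counts as 1 replicate. Mean CPM per mouse was compared with limma, blocked by mouse, on the scale log2(CPM + 5) for genes of at least 10 CPM. Differences below are on that scale, which understates the change of low genes. Since both sides were chosen by Apoe in these same cells, p-values are conditional on that choice. Of 9219 genes, 56 were higher in Apoe-high cells at a Benjamini-Hochberg adjusted p under 0.05 (0.607% of those tested) and 1 was lower (0.0108%), 57 in all (0.618%). In 53 of the 56 the lowest mouse mean of Apoe-high cells exceeded the highest of Apoe-low cells. The 56 were called on these same means and the share over all 9219 genes is not given, so this only describes. The number called higher was 4 with cells thinned to 5000 counts, 6 without the filter on low values, 14 in runs 2 to 4 alone, 144 in run 1 alone and 214 without matching by class. Each of the 56 genes that was tested in these settings kept a positive difference. The settings reuse the cells on which these genes were called, so the signs only describe. Of the higher genes named below, only Fabp7, Dbi, Sparcl1 and Abca8a kept their call without the filter. Sparc (limma adjusted p = 0.0614), Gpm6b (0.147), Atp1b2 (0.147) and Sox10 (0.0652) were among those that lost it. In 47 of the 56, and in 407 of all 9219 genes, the mean of Apoe-low cells was under the 10 CPM filter. Such a gene was tested only because it was high in Apoe-high cells. Its p-value and the list counts and medians below therefore describe and do not support. Of the higher genes named below, only Gpm6b, Dbi, Cst3, Vim, Mt1, Nfia and Timp3 had an Apoe-low mean over the filter. Gpm6b was over it only through Control, at 41.2 CPM against 0 to 9.34 CPM in the other mice. The highest Apoe-low cell held 1402 CPM of Gpm6b, and the p-value of Gpm6b also only describes.

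Of the satellite glial list, 12 of 14 tested genes rose and none fell, with a median difference of 3.37, against -0.01 over all genes tested. For 10 of the 12, Fabp7 and Sparc among them, the mean of Apoe-low cells was under the filter, and their p-values only describe. Fabp7 (chromosome 10, 57784881 to 57788450, plus strand) averaged 330.1 CPM in Blue, 216.7 in Red, 549.2 in Control, 242.7 in Control2 and 293.9 in Control6 in Apoe-high cells, against 3.29, 1.22, 1.29, 0 and 0 CPM in Apoe-low cells of the same mice. The mouse means of the groups did not overlap, though the 0 CPM of Control2 rests on 4 Apoe-low cells. The difference was 5.70 (SE 0.30, limma adjusted p = 9.49e-07). Sparc (chromosome 11, 55394500 to 55423183, minus strand) averaged 272.3, 284.6, 197.6, 281.7 and 298.2 CPM in Apoe-high cells, against 1.62, 1.56, 23.5, 0 and 1.11 CPM in Apoe-low cells. Control was lowest on the Apoe-high side and highest on the Apoe-low side, and the difference over the 5 mice was 5.03 (SE 0.41, limma adjusted p = 3.19e-05).

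Gpm6b (chromosome X, 166238911 to 166388988, plus strand) averaged 182.8 ± 18.1 CPM in Apoe-high and 10.4 ± 17.6 CPM in Apoe-low cells (SD, n = 5 mice), a difference of 4.201 (SE 0.46, limma adjusted p = 0.000593). Atp1b2, a sodium pump beta subunit gene of glia, averaged 38.6 ± 8.43 CPM in Apoe-high and 2.77 ± 4.71 CPM in Apoe-low cells (difference 2.63, SE 0.40, limma adjusted p = 0.00598). Kcnj10, the potassium channel Kir4.1 that marks satellite glia, had a count in 51 of 95 Apoe-high and 0 of 247 Apoe-low cells. It averaged 23.2 ± 14.3 CPM in Apoe-high cells and was at 0 in every Apoe-low mean, so that it passed the filter through the Apoe-high side alone (limma adjusted p = 0.0257). Its call was lost with no filter (limma adjusted p = 0.195), with pseudocount 1 (0.0529) and with all cells under 500 CPM of Apoe as the low side (0.883).

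Dbi, an acyl-CoA binding protein gene that neurons also express, had a count in 93 of 95 Apoe-high and 196 of 247 Apoe-low cells. It averaged 444.6 ± 73.2 CPM in Apoe-high and 83.7 ± 21.5 CPM in Apoe-low cells, a difference of 2.36 (SE 0.17, limma adjusted p = 9.38e-06). Ednrb, the endothelin B receptor gene, differed by 3.81 (SE 0.42), Ttyh1 by 3.70 (SE 0.39) and Sparcl1, a secreted relative of Sparc, by 3.499 (SE 0.34). The matrix genes Fbln5 and Fbln2 differed by 3.24 and 3.00. Glul, glutamine synthetase, did not pass: it averaged 194.8 ± 25.3 CPM in Apoe-high and 125.1 ± 43.4 CPM in Apoe-low cells (difference 0.68, SE 0.20, limma adjusted p = 0.380). Ptprz1, a receptor phosphatase gene, averaged 42.99 ± 12.8 and 18.6 ± 24.4 CPM (difference 1.62, SE 0.58, limma adjusted p = 0.592). Slc1a3, Gja1 and Fads2 were under the 10 CPM filter.

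**Figure D3:**
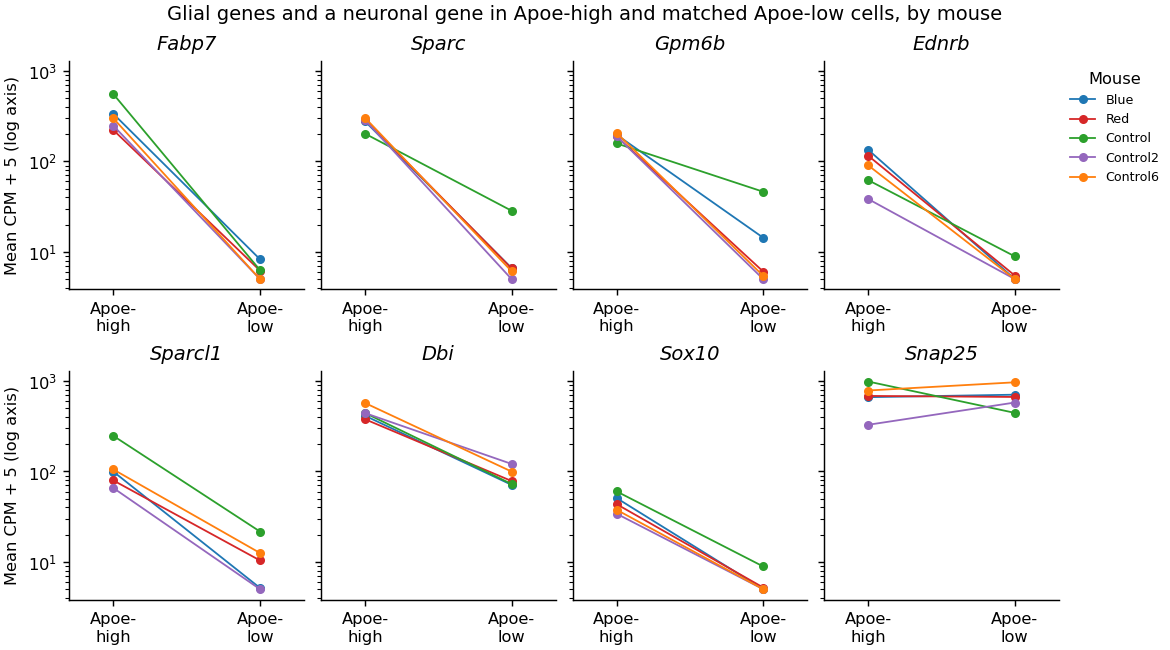
Mean CPM plus 5 on a log axis in Apoe-high cells (left) and matched Apoe-low cells (right), with 1 line per mouse, for 7 glial genes and the neuronal gene Snap25. Every glial line is lower on the right, and the flattest of them is Gpm6b in Control (153 against 41.2 CPM), while the Snap25 lines cross.

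Of the list of genes shared by satellite glia and Schwann cells, called glial lineage here, 5 of 7 tested genes rose and none fell, with a median difference of 2.76. All 5 had an Apoe-low mean under the filter. Sox10, the transcription factor of the neural crest glial lineage, averaged 40.3 ± 10.5 and 0.826 ± 1.73 CPM (difference 2.97, SE 0.39, limma adjusted p = 0.00168). Sox2 and the small heat shock gene Cryab also rose, by 2.32 and 3.27. Sostdc1, a secreted antagonist gene, had a count in 56 of 95 Apoe-high and 0 of 247 Apoe-low cells (limma adjusted p = 0.0166, and 0.296 with no filter). S100b (difference 1.87, limma adjusted p = 0.206) and Cnp (-0.07, limma adjusted p = 0.977) did not pass.

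Of the Schwann cell and myelin list 2 of 7 tested genes rose, Plekhb1 among them (difference 2.22, SE 0.44, limma adjusted p = 0.0388), and none fell, with a median of 1.38. Both had an Apoe-low mean under the filter. Mbp averaged 146.8 ± 141 CPM in Apoe-high and 56.5 ± 41.2 CPM in Apoe-low cells (limma adjusted p = 0.429). Pmp22, Mal, Scn7a and Apod did not pass, and Gfap was at 0 on both sides.

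Of the 56 genes that rose, 19 stood in a glial list and 37 did not. Among the 37 the rule for names took Abca8a, a lipid transporter gene of the ABC family, at 85.9 ± 5.53 CPM in Apoe-high and 1.53 ± 2.17 CPM in Apoe-low cells (difference 3.85, SE 0.37, limma adjusted p = 0.000175). It also took Ntrk2, which encodes the BDNF receptor TrkB and stood in the neuron class list, at 61.2 ± 22.3 and 3.87 ± 3.78 CPM (difference 2.92, SE 0.36, limma adjusted p = 0.00122). C4b, a complement gene, differed by 2.38 (limma adjusted p = 0.0231), but 35.4% of its low values were fractions of a count, as for genes that share reads, and it is uncertain.

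The following genes were chosen after their values were seen. Cst3, the secreted protease inhibitor cystatin C, was abundant on both sides, at 590 ± 43.9 CPM in Apoe-high and 244.9 ± 58.4 CPM in Apoe-low cells (difference 1.28, SE 0.15, limma adjusted p = 0.000891). The intermediate filament gene Vim averaged 337.8 ± 62.5 and 63.7 ± 41.3 CPM (difference 2.66). The metallothionein genes Mt1 and Mt2, which bind zinc and copper, differed by 2.58 and 2.695. The transcription factor genes Nfia, Nr2f1, Maf and Cebpd differed by 2.19 to 2.38. The basement membrane genes Nid1 and Col28a1, the protease gene Adamts5 and the protease inhibitor genes Timp3 and Serpine2 differed by 2.25 to 3.26.

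**Figure D4:**
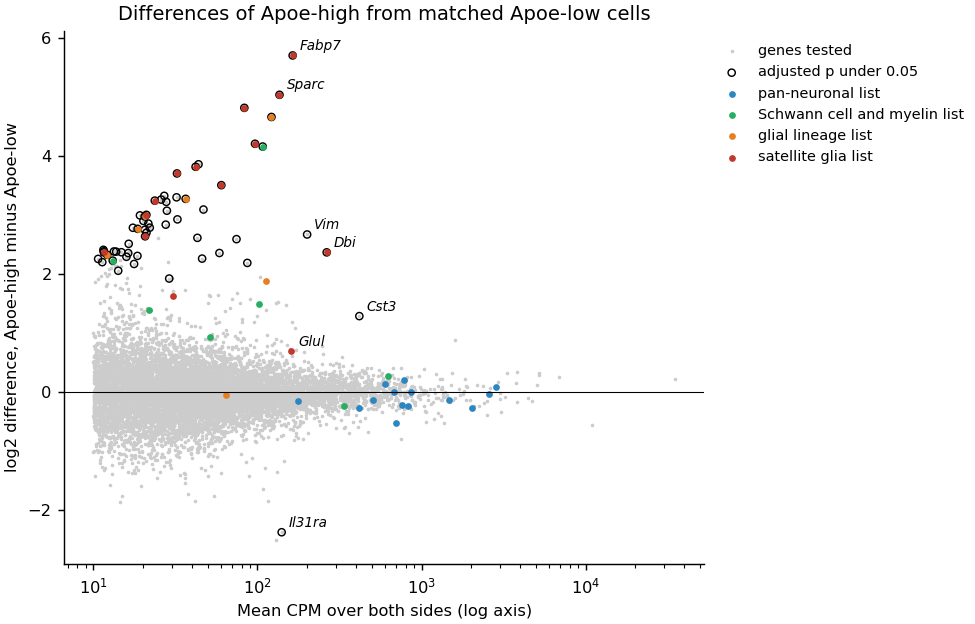
Mean CPM (log axis) against the log2 difference of Apoe-high minus matched Apoe-low cells for 9219 genes. Rings mark adjusted p under 0.05. Satellite glial genes lie between 0.68 and 5.70, and pan-neuronal genes between -0.53 and 0.19.

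Of 14 pan-neuronal genes none passed (median -0.15). Scn10a had the difference of largest size, at 537.1 ± 97.01 CPM in Apoe-high and 863.9 ± 524.7 CPM in Apoe-low cells (difference -0.53, SE 0.20, limma adjusted p = 0.674). None passed of 22 genes of cholesterol and fatty acid synthesis (median 0.06), of 5 lipid carrier and export genes (0.34), of 11 lysosomal genes (0.05), of 14 immediate early and heat shock genes (0.27) or of 8 axon injury genes (-0.23). Of 9 genes of antigen presentation only C4b passed. Nr4a1, an immediate early gene, averaged 35.4 ± 29.7 and 3.85 ± 6.93 CPM (difference 2.09, limma adjusted p = 0.133), and Atf3, induced by axon injury, 30.8 ± 41.8 and 78.05 ± 56.9 CPM (difference -1.78, limma adjusted p = 0.198). Without an adjusted threshold, 583 of the 9219 genes had p under 0.05.

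Of 21 tested neuron class markers Ntrk2 passed and 20 did not (median 0.02). The 6 markers set the classes, so the matching limits their differences, but only in part. Calca and Nefh placed only cells without Mrgprd, Mrgpra3, Sst or Th at its threshold. Within Th cells Calca averaged 2672 CPM in 8 Apoe-high and 360.6 CPM in 25 Apoe-low cells. Within Sst cells Calca averaged 0 and 52.6 CPM, and these class differences were not tested. In the matched cells, Mrgprd averaged 233.1 ± 160.7 CPM in Apoe-high and 265.3 ± 215.8 CPM in Apoe-low cells, and Calca 3262 ± 3087 and 3362 ± 3378 CPM. Their differences, with those of Mrgpra3, Sst, Th and Nefh, lay between -0.10 and 0.75 (limma adjusted p from 0.829 to 0.977).

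Markers of other cell types were read next. None of the 14 macrophage genes reached the 10 CPM filter; their sum had a median of 0 on both sides, with a range of 0 to 69.5 CPM in Apoe-high and 0 to 150.6 CPM in Apoe-low cells, and C1qa, C1qc, Lyz2, Ctss, Tyrobp and Fcer1g had no count in either. Lymphocyte, neutrophil and erythroid sums also had a median of 0 on both sides. Lymphocyte sums reached 48.9 CPM in Apoe-high and 61.8 CPM in Apoe-low cells, neutrophil sums 8.495 and 54.6 CPM, and erythroid sums 1240 CPM in Apoe-high and 326 CPM in Apoe-low cells. The fibroblast sum had a median of 42.5 CPM (range 0 to 1809) in Apoe-high and 0 CPM (range 0 to 867.5) in Apoe-low cells. The collagen gene Col1a2 had a count in 56 of 95 Apoe-high and 8 of 247 Apoe-low cells, and Dcn in 23 and 33. They differed by 1.63 and 1.33 and did not pass (limma adjusted p = 0.582 and 0.634), and their part in the results was not tested. The endothelial sum had a median of 28.6 CPM (range 0 to 323.8) in Apoe-high and 0 CPM (range 0 to 215.8) in Apoe-low cells. Most of it was Egfl7, and Cldn5 and Flt1 had no count. The mural sum had a median of 6.00 CPM (range 0 to 1467) in Apoe-high and 0 CPM (range 0 to 1436) in Apoe-low cells. Its most abundant gene, Rgs5, averaged 118.7 CPM over all Apoe-high and 143 CPM over all Apoe-low cells and had a count in 22 and 62 of them.

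The 56 genes were then read within 6 neuron classes. The classes Calca with Nefh and Nefh, with few Apoe-low cells, were not read in this way, and differences between classes were not tested. All 56 had a positive difference in Mrgprd cells (16 Apoe-high, 78 Apoe-low), Mrgpra3 cells (6 and 29), Th cells (8 and 25) and Calca cells (25 and 46). In Sst cells (5 and 32) 55 did, and in cells with no marker (6 and 15) 54 did. The genes were called in a fit that held these cells, so the counts are a description. Fabp7 averaged 325 CPM in Apoe-high and 1.25 CPM in Apoe-low Mrgprd cells, and 251.6 and 2.01 CPM in Calca cells. In Th cells it averaged 442.1 and 0.555 CPM, and in Sst cells 225 and 0.627 CPM. With Mrgprd cells alone, which left 4 mice, limma called 13 genes higher, 12 of them among the 56.

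**Figure D5:**
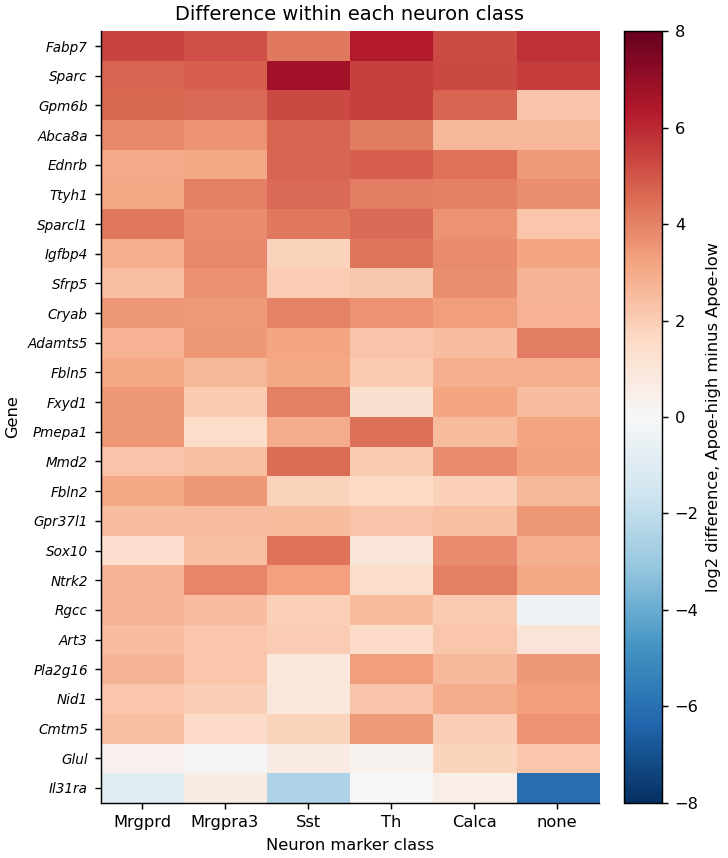
The log2 difference of Apoe-high minus Apoe-low cells within each neuron class for 24 of the genes with the largest differences, with Glul and Il31ra below. The 24 genes are positive in every class except Rgcc in cells with no marker, whereas the Il31ra difference is largest in cells with no marker.

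The proportions of glial transcripts varied among the Apoe-high cells. With CPM summed over cells, Fabp7 was 0.153 of Apoe, from 0.108 in cells with no marker to 0.231 in Mrgprd cells. By mouse it ran from 0.101 in Red to 0.218 in Control. Dbi was 0.190 of Apoe over all 95 cells, from 0.132 in cells with no marker to 0.3295 in Mrgprd cells. Gpm6b was 0.0946 of Apoe, from 0.0532 in cells with no marker to 0.135 in Mrgprd cells, and by mouse from 0.0762 in Blue to 0.146 in the 2 cells of Control1. Classes and mice overlap in these groups, and the ratios were not tested.

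Within the 95 Apoe-high cells, Spearman's rho with Apoe was 0.54 for Fabp7, 0.43 for Dbi and 0.38 for both Sparc and Gpm6b. Among neuronal genes it was 0.23 for Snap25, -0.15 for Uchl1 and -0.32 for Scn10a, and it was -0.15 for the number of counts. These values describe cells that share mice and depth and whose range of Apoe the selection set.

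Il31ra, which encodes the receptor of the itch cytokine IL-31 and marks Sst neurons, was the 1 gene called lower. It averaged 18.1 CPM in Blue, 1.21 in Red, 106.9 in Control, 152.4 in Control2 and 0 in Control6 in Apoe-high cells, against 37.9, 45.3, 427.6, 519.1 and 95.3 CPM in Apoe-low cells. Il31ra was lower in 5 of 5 mice although the groups overlapped (difference -2.38, SE 0.41, limma adjusted p = 0.0148, and 0.118 without Control). Control and Control2 each held only 1 Apoe-low cell of the Sst class. The cells with no marker were not alike on both sides: Il31ra and the neurotensin gene Nts had a count in 0 of 6 Apoe-high cells of that class and in 7 of 16 Apoe-low cells. Depth differed too, with a median of 23798 counts in these Apoe-high and 6815 counts in these Apoe-low cells. Snap25 had a count in 6 of 6 and 11 of 16 of them. Whether low depth placed such cells on the Apoe-low side was not tested. Within Sst cells Il31ra averaged 335 CPM in 5 Apoe-high and 794.7 CPM in 32 Apoe-low cells and was higher in Apoe-high cells in 0 of 4 mice, a difference of -2.46 that was not tested. Without the class of no marker the difference was -1.12 (limma adjusted p = 0.447), and no gene was lower.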

How the data were processed

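Single sorted cells were sequenced as separate libraries with a digital RNA sequencing method, per the labels' protocols. STAR 2.7.3a and mm10 are named in the submitters' processing notes. What was deposited is a signal for each gene in each cell: a count multiplied by a factor of the cell. Whole counts were recovered in 252 of 394 columns and not claimed in 142. Low values were whole within 0.1 for a median of 96.5% of them. The labels list 400 cells, of which 6 were not analysed here. Rn45s (on average 7.42% of the signal) and 26 date-named entries (0.154%) were dropped before scaling to CPM, and cells with at least 500 genes were kept. Of the columns, 0 were identical to another.

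Members and lists were chosen with earlier results of these data known. Per mouse with at least 3 matched members, mean CPM was compared with the class-weighted mean of Apoe-low cells, with limma 3.58.1 (R 4.3.3). Alternatives used edgeR 4.0.16 and DESeq2 1.42.0 on estimated counts of all matched cells, also from columns where recovery was not claimed. Counts were summed per mouse and side, weighted by class on the Apoe-low side, and rounded to whole numbers. Shares and depth were compared by exact sign flips over mice. Named genes were Apoe and the other 3 markers, the 6 neuron markers, tested satellite glial genes, the 10 largest called differences each way (mean 20 CPM or more, 1 direction in every mouse), and up to 4 called genes per list. The limma and edgeR fits were also run on simulated sums per mouse and side. That simulation held no choice of cells by Apoe and no matching by class, so it does not bear on those steps. Gene positions are from GENCODE on mm10 (97.8% of symbols found). Nothing states whether cells of a mouse were prepared together, and intervals cover counting error only. Some genes that meet the rule for names are not reported here.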

Additional observations from a re-analysis of the deposited data

Results flagged for a closer look

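In 3 of 31 sets of 5 mouse differences, 1 mouse lay apart from the other 4 beyond Dixon's 95% critical value, which chance does in about 1 of 20 sets. The Sparc difference was 2.83 in Control and 5.39 to 5.84 in the other mice, with 197.6 CPM in Apoe-high and 23.5 CPM in Apoe-low cells of Control. The Mrgpra3 difference was 2.68 in Control2 and 0 to 0.73 in the others, with 26.98 CPM in Apoe-high and 0 CPM in Apoe-low cells of Control2. Mrgpra3 helped to set the matching, and 26.8% of its low values were fractions of a count, so it is uncertain. The Atp1b2 difference was 1.72 in Control6 and 2.74 to 3.05 in the others, with 47.5 CPM in Apoe-high and 10.9 CPM in Apoe-low cells of Control6.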

How the results depend on the processing

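Each of the 56 higher genes that was tested under an alternative kept a positive difference there. The alternatives reuse the cells on which these genes were called, so the signs only describe. The number of genes called varied widely. Shares are of the genes tested, against 0.607% higher and 0.0108% lower. Pseudocount 1 gave 0.391% (36 genes) higher and 0 lower, pseudocount 20 gave 58 genes higher and 0.0325% (3 genes) lower, and no filter on low values 0.0358% (6 genes) and 0. Averaging on the log scale gave 44 higher and 0 lower. Without the replicate block (mouse) 52 were higher and 0 lower. Without matching by class 2.31% (214 genes) were higher and 1.05% (97 genes) lower. With all cells under 500 CPM of Apoe as the low side 0.344% (32 genes) were higher. Cells thinned to 5000 counts gave 0.0444% (4 genes, Fabp7, Sparc and Dbi among them) and 0, halved marker thresholds 53 genes and 0, DESeq2 83 genes and 1, and edgeR 1.57% and 0.142%. Leaving out 1 mouse gave 0.316% to 0.580% higher, or 29 genes without Blue, 36 without Red, 42 without Control, 54 without Control2 and 32 without Control6, and 0 to 0.0218% lower. Run 1 alone gave 1.56% (144 genes) and 0.335% (31 genes), and runs 2 to 4 alone 0.155% (14 genes) and 0.0221% (2 genes). Without the deepest Apoe-high cells 0.0217% (2 genes) were lower. Alternatives added after seeing the data gave 0.151% (13 genes) and 0 in Mrgprd cells alone, and 1.24% and 0.0656% in Calca cells alone (2 mice). Without both Calca classes 0.0221% were lower, and without cells of no marker 55 genes were higher and 0 lower. The causes were not tested.

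Signs turned for neuron markers that set the matching, class shares and depth. Sst was 0.13 (pseudocount 20), 0.32 (halved thresholds), 0.59 (edgeR), 0.21 (DESeq2), 0.32 (without cells of no marker) and -0.40 to 0.40 with 1 mouse left out. Th was -0.28 (thinned), -0.14 (halved thresholds), -0.90 (edgeR adjusted p = 0.0357), -0.55 (DESeq2) and -0.62 (run 1, limma adjusted p = 0.0454). Calca was -0.15 (log averaging), -0.081 (run 1) and -0.23 (Calca cells alone), and Mrgprd 0.00074 (all cells under 500 CPM) and 0.13 (thinned). The share of cells with no marker turned to 1.72 points (thinned), and with 1 mouse left out it was -4.27 to 3.56 points, that of Th cells -0.0099 to 6.43 and that of Mrgpra3 cells -2.73 to 5.68. The log2 difference of counts was -0.16 (without Control) to 0.55 (without Control2), and that of detected genes -0.038 to 0.33. Of 749 single-gene values under alternatives, 633 kept direction and side of the threshold, 94 lost the call, 6 gained one and 16 turned. Il31ra lost its call without Control (limma adjusted p = 0.118) and with pseudocount 1, no filter, log averaging, no block, thinning, halved thresholds, edgeR, DESeq2, Mrgprd cells alone and no cells without a marker.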
